A study of Homo sapiens with 3 samples.

Results

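The chromatin around 7 genes of the NF-κB pathway was examined in a lymphoma cell line. The genes were NFKBIA, TNFAIP3, REL, NFKB1, NFKB2, RELB and BIRC3. Members were all intervals of 2 deposited lists that overlapped a gene body extended by 20 kb on each side, on hg19. This gave 57 of 215598 peaks of CREBBP and 19 of 18263 regions of H3K27ac. Chromatin immunoprecipitation with sequencing (ChIP-seq) had been done in SC1, a human cell line labelled DLBCL (diffuse large B-cell lymphoma). The groups were chromatin pulled down with anti-CREBBP, chromatin pulled down with antibody against H3K27ac (acetylated lysine 27 of histone H3) and input with no antibody, each with 1 sample. The labels name no treatment, time or genotype, although interval names in both lists contain DMSO and rep2. The input was not analysed here. With no replicates, no difference between cultures could be tested, and all values below describe these libraries. The cell type was not checked against marker genes, because no gene positions on hg19 other than those of the 7 genes were used.

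NF-κB is a family of dimeric transcription factors that B cells use to respond to antigen, CD40 and inflammatory signals. REL and RELB carry a transactivation domain, while NFKB1 and NFKB2 encode precursors that are processed to DNA-binding subunits. NFKBIA encodes IκBα, which holds the dimers in the cytoplasm until a kinase marks it for destruction. TNFAIP3 encodes A20, a ubiquitin-editing enzyme that ends the signal, and BIRC3 encodes cIAP2, a ubiquitin ligase that acts in the pathway and in cell survival. NF-κB is known to induce NFKBIA and TNFAIP3, which closes a negative feedback loop. CREBBP is a lysine acetyltransferase that acetylates histones and serves as a coactivator of NF-κB, and H3K27ac marks active promoters and enhancers.

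NF-κB dimers bind short κB sequences, so the RefSeq promoters (250 bases before to 50 after a start, GRCh38.p14) of these genes were searched for them. The table matched 6 of the 7 genes with 9 entries (NFKB1 has 2 and NFKB2 has 3). RELB had no entry. A strict κB form, GGGANTTTC followed by another C and read on either strand, occurred in 5 of the 9 entries and in at least 1 promoter of 5 of the 6 genes, against 0.558% of all 35116 promoters. The exception was BIRC3. Without the closing C, a shortening made after the matches were seen, the letters GGGANTTTC occurred in the same number of genes and in 1.28% of all promoters. A wider form that contains the strict one, GGGNNTTNC followed by another C, occurred in all 6 matched genes and in 5.68% of all promoters. A gene with several entries has more chances of a match. The 250 bases before the start are shown for the promoters with a match before the only or first start, because they show how near the κB letters lie to the RefSeq starts of these genes. Capitals mark every match to the strict or the wider form.
NFKBIA, GRCh38.p14 chr14:35404750-35404999, minus strand: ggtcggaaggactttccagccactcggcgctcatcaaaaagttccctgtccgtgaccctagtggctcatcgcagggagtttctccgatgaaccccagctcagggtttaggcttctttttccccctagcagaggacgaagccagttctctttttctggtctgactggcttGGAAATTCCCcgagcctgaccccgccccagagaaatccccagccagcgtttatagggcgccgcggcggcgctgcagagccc
TNFAIP3, GRCh38.p14 chr6:137867009-137867258, plus strand: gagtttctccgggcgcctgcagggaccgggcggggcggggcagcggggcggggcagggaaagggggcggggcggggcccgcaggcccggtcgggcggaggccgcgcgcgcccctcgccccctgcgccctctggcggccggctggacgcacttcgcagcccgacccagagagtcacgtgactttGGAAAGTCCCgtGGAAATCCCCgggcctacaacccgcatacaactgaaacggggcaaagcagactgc
REL, GRCh38.p14 chr2:60881324-60881573, plus strand: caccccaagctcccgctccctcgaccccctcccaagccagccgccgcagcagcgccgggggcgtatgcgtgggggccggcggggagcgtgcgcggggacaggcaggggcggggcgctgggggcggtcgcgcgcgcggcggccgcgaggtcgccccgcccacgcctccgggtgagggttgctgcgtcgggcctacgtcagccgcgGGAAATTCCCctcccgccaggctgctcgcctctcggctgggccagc
NFKB1, GRCh38.p14 chr4:102501109-102501358, plus strand: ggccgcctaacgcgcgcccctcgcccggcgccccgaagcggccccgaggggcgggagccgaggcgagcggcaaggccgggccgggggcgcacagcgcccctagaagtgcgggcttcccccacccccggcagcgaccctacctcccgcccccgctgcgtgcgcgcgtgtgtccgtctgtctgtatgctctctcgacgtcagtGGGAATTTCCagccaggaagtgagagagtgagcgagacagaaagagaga
BIRC3, GRCh38.p14 chr11:102317234-102317483, plus strand: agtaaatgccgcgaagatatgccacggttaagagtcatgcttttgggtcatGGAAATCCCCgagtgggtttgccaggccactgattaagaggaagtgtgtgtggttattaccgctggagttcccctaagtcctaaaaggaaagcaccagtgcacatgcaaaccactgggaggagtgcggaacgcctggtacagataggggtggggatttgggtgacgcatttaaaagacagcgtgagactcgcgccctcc
For NFKB2 the first entry held no match to either form, and its 2nd entry held 3 matches, to the wider form only. The 3rd entry held a strict match and another to the wider form 176 bases before the start. The last 30 bases before the start of this 3rd entry, with the strict match, are shown.
NFKB2, GRCh38.p14 chr10:102395675-102395704, plus strand: ggtattttcGGGACTTTCCtaagctgctct

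The strict match began 81 bases before the start in NFKBIA, 67 in TNFAIP3, 49 in NFKB1 and 46 in REL. In the 3rd NFKB2 entry it began 21 bases before the start. NFKBIA and REL carried the same 10 letters, GGAAATTCCC. TNFAIP3 carried a second match, to the wider form, 12 letters further on in the printed sequence at 55 bases before the start. The BIRC3 match began 199 bases before the start and spelled the same letters as the second match of TNFAIP3, GGAAATCCCC. The loosest form, with any 5 bases between GGG and CC, occurred in all 6 genes and in 58.7% of all promoters. The GC box letters GGGCGG occurred in 5 of the 6 genes, all but BIRC3, and in 45.0% of all promoters, and overlapped some loose κB matches in TNFAIP3. TATAAA occurred in NFKBIA alone, on the other strand, and in 11.5% of all promoters. CpG pairs numbered from 15 in the BIRC3 promoter to 41 in the REL promoter, against a median of 14 over all promoters. These positions are on GRCh38.p14 and were not placed on the hg19 peak lists, so no match is assigned to a peak.

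All 7 gene starts lay inside an H3K27ac region, and 5 of them did so when only the stronger 50% of regions by q were used. The share of gene starts in general that lie inside one was not measured. These regions ran from 2034 to 7516 bp in width, and all 7 were wider than the median of the list, 1423 bp. Their fold over background, a ratio given by the authors' peak caller and taken as a mean over the region, ran from 3.33 to 14.6. Only 3 of the 7 exceeded the list's median fold of 4.92, so these regions were wide but mostly of ordinary fold. Picking regions because they cover a given point favours wide ones, and the width at gene starts in general was not measured. Of the 7 regions over starts, 6 held a CREBBP peak, and RELB was the exception. With regions joined within 10 kb, all 7 starts including that of RELB lay in a domain with a CREBBP peak. The RELB domain was 19.4 kb wide, and 3.30% of all joined domains were wider. Joining gives any region more chances to hold a peak, and the share of all joined domains with one was not measured. With the stronger 50% of regions, 4 starts lay in a region with a CREBBP peak. The whole list gives 49.0% of H3K27ac regions with a CREBBP peak. That figure covers regions of every kind, and the share at promoters in general was not measured.

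**Figure D1:**
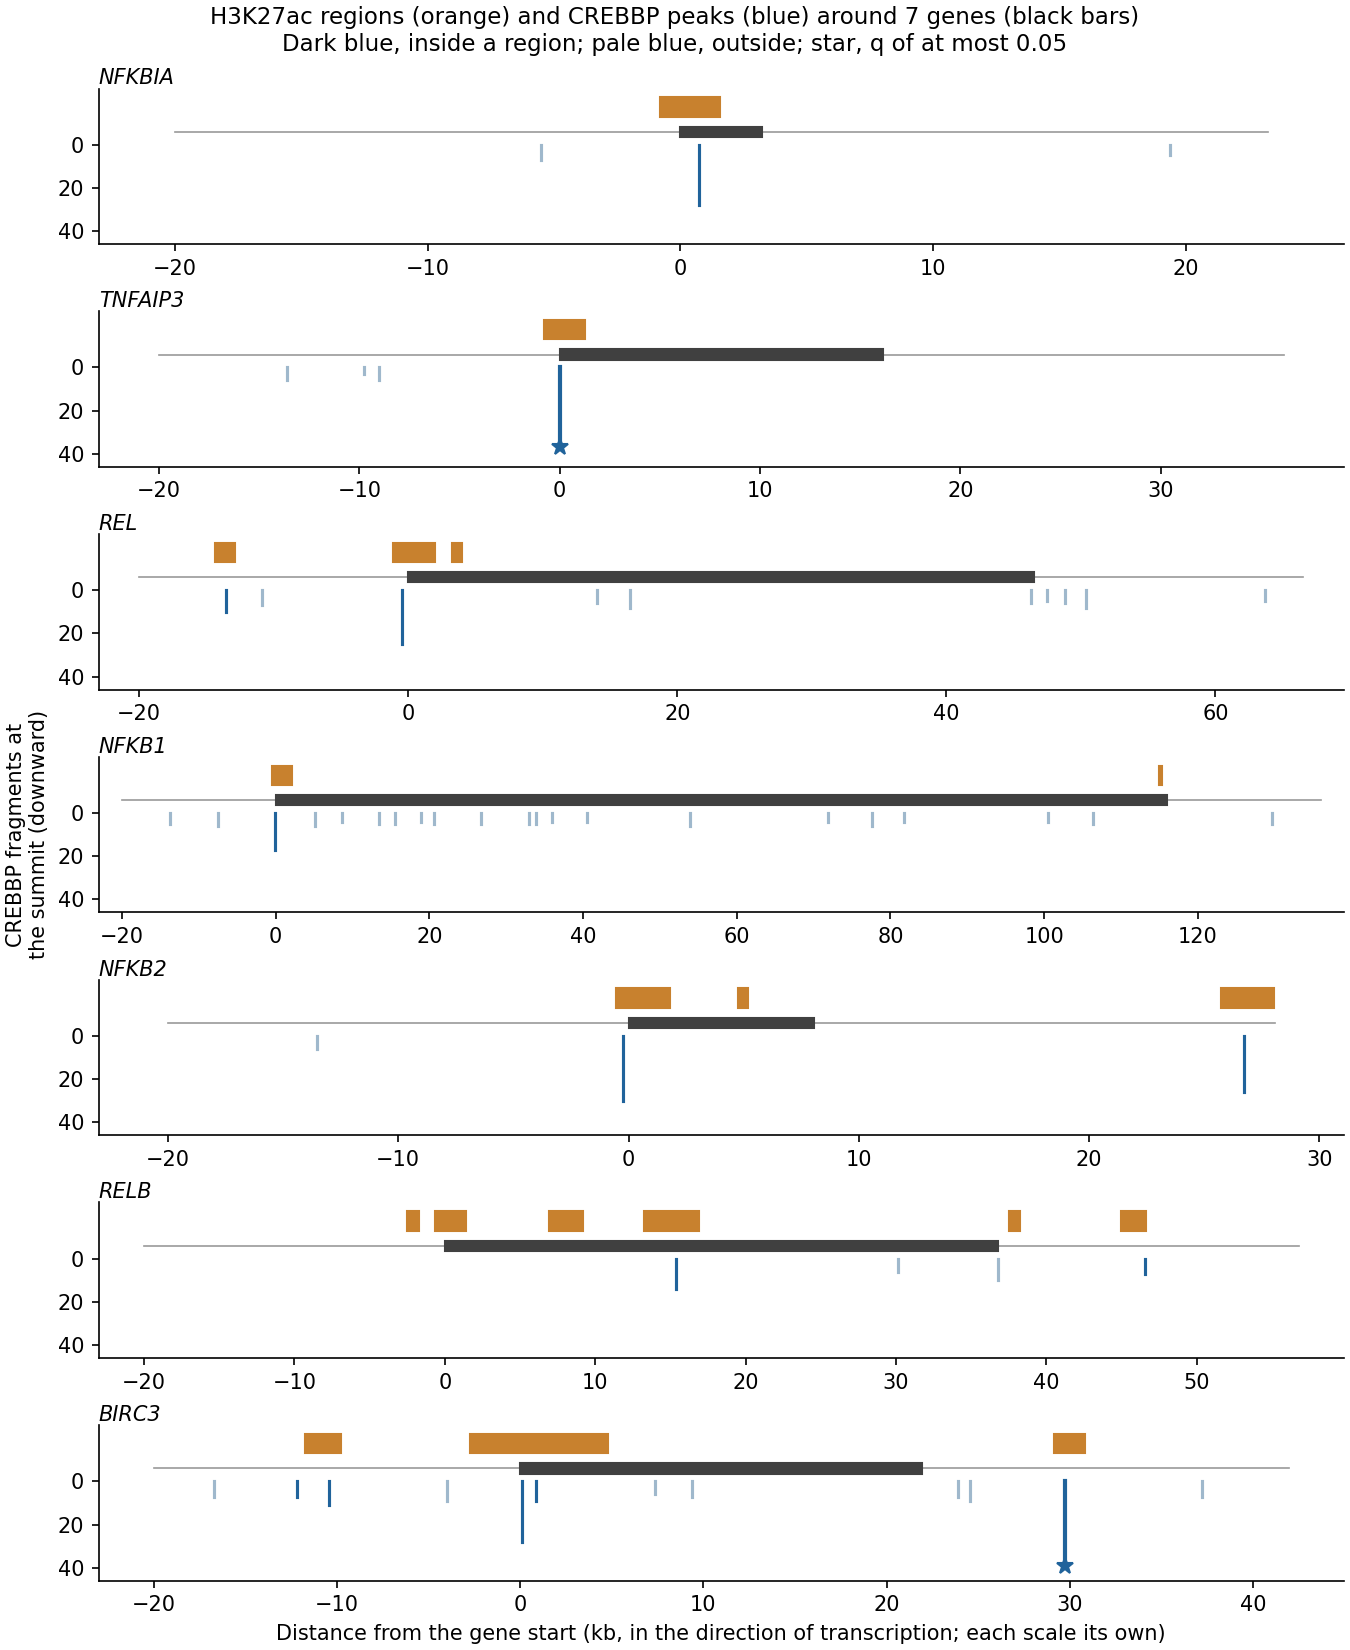
The 7 gene windows, each on its own distance scale in kb from the gene start. Orange blocks are H3K27ac regions, black bars gene bodies, and blue bars CREBBP peaks whose length is the number of fragments at the summit. All 10 bars of more than 10 fragments stand in H3K27ac regions, 6 of them in the region over a gene start, and the pale bars outside regions reach at most 10 fragments. Stars mark a q of at most 0.05.

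The depth of a CREBBP peak is given below as the number of fragments at its summit over the background that the peak caller expected there. These were solved from the authors' fold and p, taking fold as (fragments + 1) / (background + 1) and p as the upper tail of a Poisson distribution, and they are inferences from the deposited values. Intervals on fragments are exact Poisson 95% intervals for counting error only, and they take the background as known. The deposited CREBBP list sets no limit on q and runs to p-values of 0.05, so stronger peaks are marked here by a q of 0.05 or less.

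At NFKBIA the only H3K27ac region of the window covered chromosome 14 from 35872383 to 35874758, 2376 bp over the start. Its fold of 14.6 was the largest of the 19 member regions, and 5.83% of all H3K27ac regions had a higher one. It held a CREBBP peak whose summit lay 743 bp downstream of the start, within the gene body. The peak had 28 fragments (18.6 to 40.5) over a background of 15.4, a fold of 1.77, and its −log10 q was 0.0856. The region with the strongest mark thus held a peak that was far from the q threshold. The other CREBBP peaks of the window, with 7 fragments before the start and 5 past the end, lay outside H3K27ac regions, 4.45 and 17.5 kb from the mark.

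TNFAIP3, the gene of the A20 brake, also had a single H3K27ac region, on chromosome 6 from 138187554 to 138189587. Its width of 2034 bp was the smallest among the 7 start regions, and its fold was 4.36. The CREBBP peak from 138188222 to 138188630 covered the start itself, with its summit 35 bp downstream. It had 34 fragments (23.5 to 47.5) over a background of 10.2, a fold of 3.14 and a −log10 q of 4.73. It was the only peak at any of the 7 starts with a q of at most 0.05. In the whole list, 0.407% of peaks had more fragments and 5.31% had a higher fold, so this peak stood high on both counts. The 3 other peaks of the window lay between 9.01 and 13.6 kb upstream of the start, outside H3K27ac, with 3 to 6 fragments. No CREBBP peak and no further H3K27ac region was listed in the rest of the gene body or in the 20 kb past it.

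REL encodes c-Rel, a subunit prominent in B cells. Its start region, on chromosome 2 from 61107589 to 61110731, was 3143 bp wide with a fold of 7.54. A second H3K27ac region lay 12.9 to 14.3 kb upstream, from 61094404 to 61095838, with a fold of 10.4, and another of 755 bp and fold 5.44 lay 3.23 kb inside the gene. The upstream region thus had a higher fold than the start region, although it was the narrower. The start region held a CREBBP peak of 25 fragments (16.2 to 36.9) over a background of 12.9, with its summit 477 bp upstream of the start. The upstream region held a peak of 10 fragments (4.80 to 18.4) over a background of 2.36. Their folds were 1.87 for the start and 3.27 for the upstream region, and their counting intervals on fold overlapped (1.23 to 2.72 and 1.72 to 5.77). Neither passed the q threshold, with −log10 q of 0.182 and 0.879. The 8 other CREBBP peaks lay outside H3K27ac, with 5 to 8 fragments each. Of these, 4 fell past the end of the gene, towards PUS10, the next protein-coding gene in the RefSeq table.

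NFKB1, by far the longest of the 7 genes at 115974 bp, had the fewest marked bases for the length of its window. Its start region, on chromosome 4 from 103421972 to 103424663, was 2692 bp wide with a fold of 4.33 and a −log10 q of 12.6. The only other H3K27ac region was 346 bp wide near the end of the gene, with a fold of 1.61 that 98.1% of the list exceeded and a −log10 q of 1.15, which misses a q of 0.05. H3K27ac covered 1.95% of the window, the lowest share of the 7. The window, the longest of the 7, held 21 CREBBP peaks, more than any other. Of these, 20 lay outside the mark with 4 to 6 fragments. The remaining peak stood at the start, with its summit 91 bp upstream, and had 17 fragments (9.90 to 27.2) over a background of 8.25, a fold of 1.95. It was the only peak of the window with more than 6 fragments, and its −log10 q was 0.

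NFKB2 had its start region on chromosome 10 from 104153684 to 104156042, 2359 bp wide with a fold of 6.31. Its CREBBP peak had 30 fragments (20.2 to 42.8) over a background of 16.6, a fold of 1.76 and a −log10 q of 0.134, with the summit 255 bp upstream of the start. A narrow H3K27ac region of 430 bp and fold 3.74 lay in the gene body and held no CREBBP peak. At the far edge of the window, 17.7 kb past the end of the gene, a region from 104179974 to 104182241 had a fold of 11.7. It held a CREBBP peak of 26 fragments (17.0 to 38.1) over a background of 14.8. This region had a higher H3K27ac fold than the start region of NFKB2 itself, with a CREBBP peak of similar depth. By order along the chromosome, the next protein-coding gene past NFKB2 in the RefSeq table is PSD. Where the region lies relative to PSD or to genes beyond it was not examined, and the region was not assigned to any gene.

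RELB, the partner of the processed NFKB2 product in the non-canonical pathway, had the most H3K27ac regions in its window, 6. They covered 14.6% of its window. The start region, on chromosome 19 from 45504038 to 45506088, was 2051 bp wide with a fold of 4.90, close to the median of the list. A region of fold 2.96 lay just upstream, and regions of fold 7.10 and 6.43 lay 6.94 and 13.2 kb inside the gene. The mark therefore had a higher fold inside the gene than over its start. Past the end, a region of 742 bp and fold 12.2 began 0.732 kb beyond the gene, and another of 1657 bp and fold 11.4 began 8.22 kb beyond. The next gene there in the RefSeq table is CLASRP, and the regions past the end were not assigned to either gene. Only 2 of the 6 regions held a CREBBP peak, the gene-body region at 13.2 kb with 14 fragments (7.65 to 23.5) over 7.33 and the last region with 7 fragments (2.81 to 14.4) over 3.70. Within this window, no CREBBP peak was listed before or at the start, and the summit nearest to the start lay 15.4 kb into the gene. A peak of 10 fragments over 3.55 lay at the end of the gene, outside H3K27ac but 0.305 kb from the region of fold 12.2.

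BIRC3 had the widest H3K27ac region, 7516 bp over the start on chromosome 11 from 102185450 to 102192965. Only 1.64% of all regions were wider, while its fold of 3.33 was exceeded by 71.5% of the list. H3K27ac covered 18.1% of the window, the highest share of the 7. The start region held 2 CREBBP peaks, the first over the start with 28 fragments (18.6 to 40.5) over a background of 15.7, and the second 879 bp downstream with 9 fragments over 4.35. An upstream region from 102176416 to 102178406, of fold 4.50, held 2 more, with 7 and 11 fragments. None of these 4 peaks passed the q threshold, and all had a −log10 q of 0. The strongest CREBBP peak of the window lay 7.79 kb past the end of BIRC3, from 102217790 to 102218124. It had 36 fragments (25.2 to 49.8) over a background of 13.9, a fold of 2.49 and a −log10 q of 2.68. It stood in an H3K27ac region from 102217302 to 102219001 whose fold, 2.60, was the second lowest of the 19. The next protein-coding gene past BIRC3 is its paralog BIRC2, which encodes cIAP1. Whether the peak lies at the start of BIRC2 was not tested, so the peak is not assigned to BIRC3 or to BIRC2. The CREBBP peak with the largest fold of the 57, 3.47, also lay here, 9.36 kb into the gene, with 7 fragments over a background of 1.30 and outside H3K27ac.

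**Figure D2:**
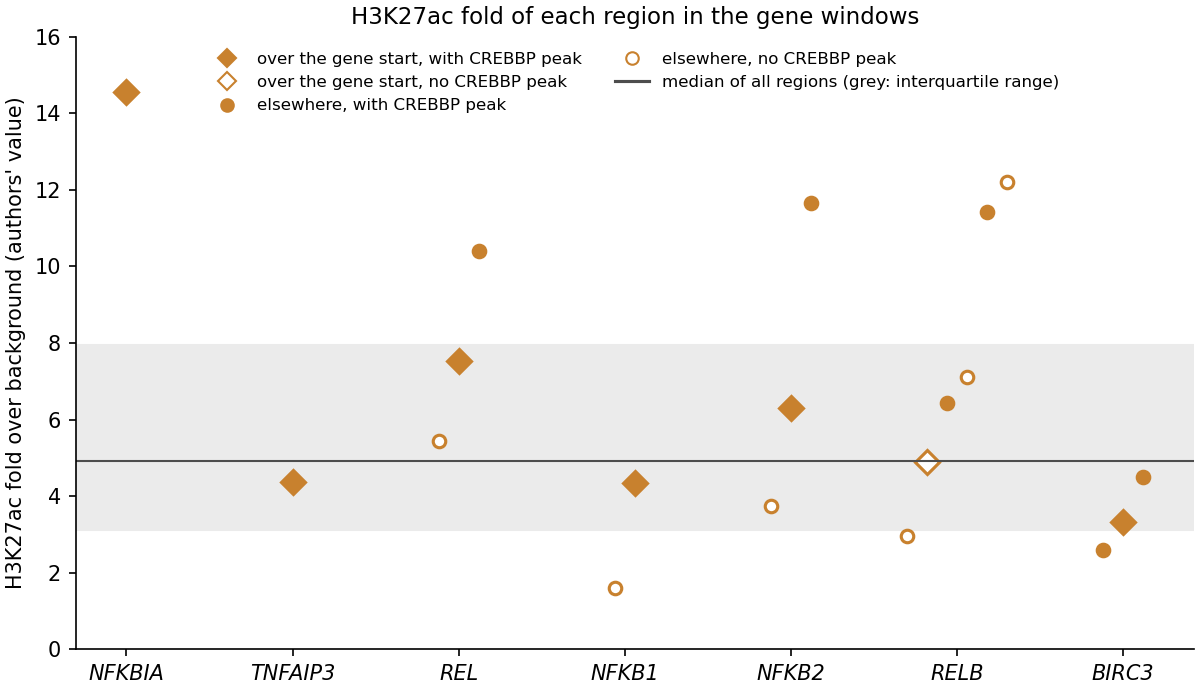
H3K27ac fold over background, the authors' value, for each of the 19 regions by gene. Diamonds are regions over gene starts, circles other regions, and filled symbols hold a CREBBP peak. NFKBIA stands highest at 14.6, and the start regions of TNFAIP3, NFKB1, RELB and BIRC3 lie below the list's median of 4.92.

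Ordered by the H3K27ac fold over the start, NFKBIA came first at 14.6, followed by REL at 7.54, NFKB2 at 6.31, RELB at 4.90, TNFAIP3 at 4.36, NFKB1 at 4.33 and BIRC3 at 3.33. With 1 library no error can be set on this order, and neighbours such as TNFAIP3 and NFKB1 cannot be ranked. Grouped by role, the inhibitors held both the highest value and one of the lower ones, and the 4 subunits lay between 4.33 and 7.54. Regions over starts had a median fold of 4.90 (range 3.33 to 14.6, n = 7) and other regions one of 5.94 (1.61 to 12.2, n = 12), which overlap over nearly their whole range. Widths differed more, with a median of 2376 bp over starts and 1546 bp elsewhere, although picking regions that cover a start favours wide ones. The 12 regions with a CREBBP peak were at least 1435 bp wide, with a median of 2313.5 bp, and the 7 without one had a median of 755 bp. Length alone gives a wide region more chances to meet a peak. In the whole list the medians were 1773.5 bp with a peak and 1160 bp without one.

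CREBBP peaks were deep at the 6 starts whose H3K27ac region held one, but so was the background beneath them. At these starts the highest peak of each region had 17 to 34 fragments over a background of 8.25 to 16.6. The 43 members outside H3K27ac had 3 to 10 fragments, with a median of 6, and a median background of 1.83 (1.30 to 3.70). The highest peak of each of these regions thus had more fragments than any member outside the mark, while a second peak in the BIRC3 start region, with 9, lay within the range outside. The fold of the highest peaks was 1.74 to 1.95 at 5 of these starts and 3.14 at TNFAIP3, and outside H3K27ac the median fold was 2.42 (range 1.74 to 3.47). The p limit of the list sets a different smallest fold at each background. For the highest peaks of the start regions it was 1.51 at their lowest background (8.25) and 1.42 at their highest (16.6), against 1.74 at the lowest background outside the mark (1.30). The folds of deep and shallow peaks are therefore given as values, and no conclusion is drawn from setting them side by side. This limit also applies to the folds of the start and upstream peaks at REL, the rank by fold at TNFAIP3 and the largest fold at BIRC3. The folds over the starts of NFKBIA and NFKB2 were exceeded by 80.7% and 81.1% of the whole list, ranks to which the same limit applies, and their fragments by 0.772% and 0.602% of it. The lower bound of the counting interval on fold at TNFAIP3 (2.20 to 4.35) lay above the fold of each of the other 5 starts, although their own intervals reached up to between 2.48 and 3.05. What raised the background at these starts was not tested.

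**Figure D3:**
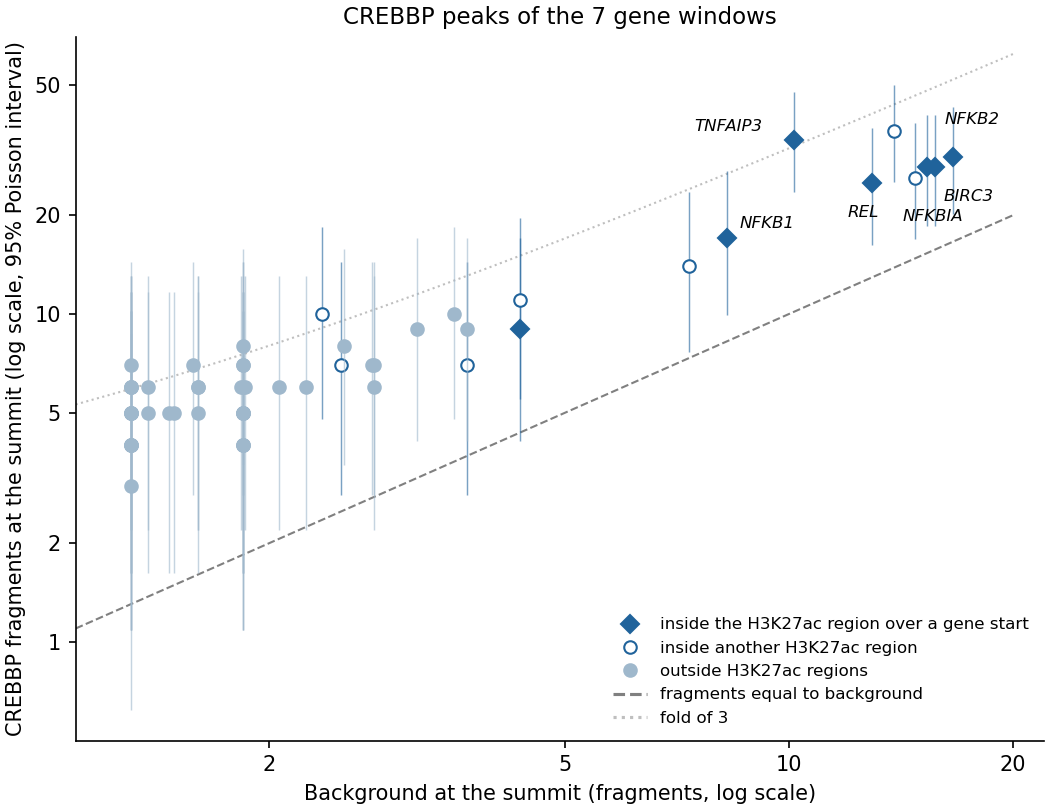
CREBBP fragments at the summit against the background, both on log scales, for the 57 member peaks, with 95% Poisson intervals on the fragments. The highest peak of each start region (diamonds) lies at the upper right, with its interval above the line where fragments equal background. Peaks are listed only at a p of 0.05 or less over this same background, so a place above the line largely restates the listing. TNFAIP3 stands at the dotted line that marks a fold of 3, and the second peak of the BIRC3 start region lies lower, at 9 fragments over 4.35.

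CREBBP peaks of these windows lay in H3K27ac regions more often than those of the whole list. Of the 57 members, 14 did, 24.6% (exact Clopper-Pearson 95% interval 14.1 to 37.8%), against 5.06% of the whole list. The windows were also richer in the mark, which covered 7.61% of their 528.667 kb and 1.12% of the chromosomes. The higher share is therefore not set against a matched stretch of genome. It was uneven between genes, from 1 of 21 at NFKB1 to 5 of 12 at BIRC3. From the side of the mark, 12 of 19 regions held a CREBBP peak, 63.2% (38.4 to 83.7%), an interval that includes the 49.0% of the whole list. The q threshold was passed by 2 of 57 peaks, 3.51% (0.428 to 12.1%), against 1.81% of the whole list, which is likewise within the interval. Both lay in H3K27ac regions, so 2 of 19 regions held such a peak, 10.5% (1.30 to 33.1%), against 11.4% of the whole list. The share of all listed peaks at that q that lie in such regions was not measured. More than 10 fragments stood at 10 of the 57 members, 17.5%, against 5.36% of the list. All 10 lay in H3K27ac regions, as did 71.9% of the 11565 peaks of that depth in the list. These intervals treat peaks as independent and cover counting error only.

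The number of CREBBP peaks differed between windows as well. BIRC3 had 12 peaks, 19.4 per 100 kb (Poisson interval 10.0 to 33.8), and NFKB1 had 21, 13.5 per 100 kb (8.33 to 20.6). Both intervals lie above the 7.10 per 100 kb of the whole list, which is counted over the extent of the chromosomes with unmappable stretches included. They treat peaks as independent, cover counting error only and belong to the densest of the 7 windows. REL had 11.6 per 100 kb (5.54 to 21.3). NFKBIA, TNFAIP3, NFKB2 and RELB had 3 or 4 peaks each, between 5.21 and 7.13 per 100 kb, with intervals that include the value of the list. In the BIRC3 window 3 peaks had more than 10 fragments, among them the deepest of the 57 with 36. NFKB1 had 20 of its 21 peaks at 4 to 6 fragments outside the mark, and none of the 21 passed the q threshold. Of all 57 members, 37 had a −log10 q of 0, 64.9%, against 80.7% of the list. NFKB2 had peaks of 26 and 30 fragments among only 3. At RELB, the sparsest window, the deepest peak had 14 fragments. By position, 16 of the 57 summits lay before a gene start, 28 in a gene body and 13 past a gene end, of which 6, 5 and 3 were in H3K27ac regions.

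**Figure D4:**
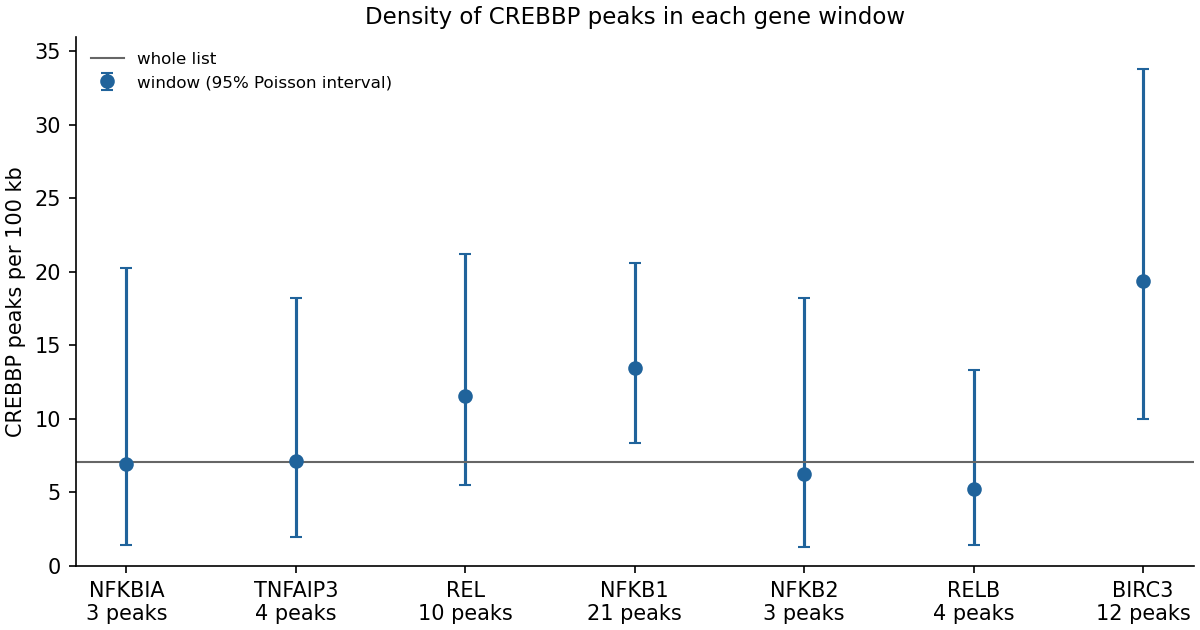
CREBBP peaks per 100 kb in each gene window, with 95% Poisson intervals, and the value of the whole list as a grey line. The intervals of NFKB1 and BIRC3 lie above the line at 7.10, and the others cross it. All intervals treat peaks as independent and cover counting error only.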

How the data were processed

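SC1 chromatin was profiled by ChIP-seq for CREBBP and for H3K27ac, with 1 list of intervals for each. The submitters' processing notes name hg19 and the tools fastp, Bowtie2, STAR and MACS2. What each tool did, with which settings and against which control, is not given in the sources used here. For each interval the authors deposited a fold (a ratio over the expected background), −log10 p, −log10 q and a score, and for CREBBP a summit position. They serve here only for describing, ranking and filtering within 1 list. Library depth is unknown.

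Intervals outside chromosomes 1 to 22 and X (128 of CREBBP, 17 of H3K27ac) were left out. Gene bodies on hg19 were those that define the windows. Strand came from the RefSeq promoter table and, for RELB, from background knowledge. Overlap meant at least 1 bp. Fragments and background were solved from fold and p, and a whole number fitted −log10 p to within 0.001 in 215580 CREBBP peaks. This solution and the overlap code were tested on simulated data. With 1 sample per group no test between samples was possible.

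All 7 genes were named, with the H3K27ac region over each start, the widest and the highest-fold region, the peaks of q at most 0.05 and the peak of largest fold. Others named were chosen after their values were seen. Members and lists were chosen with earlier results of these data known. Other pathway genes were not analysed here, because no hg19 positions for them were used. Alternatives were other window sizes, overlaps, q limits, the stronger 50% of either list and joined regions. Python 3.11.15, numpy 2.4.6, pandas 2.3.3, scipy 1.17.1 and matplotlib 3.10.9 were used.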

Additional observations from a re-analysis of the deposited data

How the results depend on the processing

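Counts moved with the window, as their construction requires. Gene bodies alone held 12 H3K27ac regions, 29 CREBBP peaks and 1 peak of q at most 0.05, and 9.02% of their length was covered by H3K27ac. Coverage was 8.94% with 10 kb on each side. With 50 kb the windows held 29 regions, 100 CREBBP peaks and 6 of q at most 0.05, with 6.44% covered. CREBBP peaks of q at most 0.01 numbered 2, and 100% of them lay in H3K27ac regions. They stood in 10.5% of the regions and at 1 gene start. The share inside was also 100% at q of at most 0.05, an alternative chosen after seeing the data. Both shares rest on the same 2 peaks. The share of all listed peaks at these limits that lie in H3K27ac regions was not measured. With only the stronger 50% of H3K27ac regions by q, coverage was 5.05%, 5 of the 7 starts lay in a region and 4 in one with a CREBBP peak. Joining regions within 10 kb gave 12 domains with a median width of 3918 bp and 13.0% coverage. Of these domains 91.7% held a CREBBP peak, those over all 7 starts included. The same share over all joined domains of the list was not measured, and the 49.0% of the list is for unjoined regions. Leaving out each gene window in turn was also chosen after seeing the data. The share of CREBBP peaks inside H3K27ac was lowest without BIRC3, 9 of 45, and highest without NFKB1, 13 of 36, against 14 of 57. The share of regions with a peak, 63.2% with all windows, ranged from 56.25% without BIRC3 to 76.9% without RELB. These values stayed within the counting intervals of the full set. Those intervals are wide and come from the same peaks and regions, so staying within them shows no stability. No paired analysis was possible because there were no replicates. Peaks of 3 to 10 fragments have counting intervals that span much of that range, and the lists do not show what lay below their limits.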
